A study of Mus musculus with 8 samples.

Results

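The contractile apparatus of smooth muscle was followed in the testis through 10 genes, chosen by name: the actins Acta2 and Actg2, the myosin heavy chain Myh11, the myosin light chain Myl9, the kinase Mylk, the thin filament genes Cnn1, Tpm1, Tpm2 and Lmod1, and the intermediate filament gene Des. All 10 were found among the 17127 genes of the deposited table. The table holds RNA-seq values of whole testes, each library from 1 mouse aged 4 months. The 4 wild-type libraries (1 to 4) were compared with 3 libraries of homozygous Iqch mutants (1, 2 and 4), and mutant 3 was not analysed here. The mutant mice descend from B6CBAF1 zygotes that received Cas9 and a guide RNA, and they carry small deletions in 1 exon of Iqch. The study ascribes the mutant RNA-seq coverage it shows at Iqch to its mu7 line, while the labels of the single libraries name no line. It also describes smaller testes in the mutants. No cell type was sorted, so a value is the share of a gene's reads in the RNA of the whole organ.

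Smooth muscle contracts when calcium and calmodulin switch on myosin light chain kinase, the product of Mylk. The kinase phosphorylates the regulatory light chain encoded by Myl9, and the smooth muscle myosin of Myh11 then pulls on filaments of Acta2 and Actg2 actin. Calponin (Cnn1) and tropomyosins (Tpm1, Tpm2) lie along the thin filament, leiomodin (Lmod1) nucleates actin filaments, and desmin (Des) anchors the apparatus. In the testis these genes mark the peritubular myoid cells, flat contractile cells that wrap each seminiferous tubule and move sperm along it, and the smooth muscle of blood vessels. Tpm1, Tpm2, Myl9 and Mylk are also transcribed in many cells that are not muscle, and transcripts of the smooth muscle gamma-actin gene Actg2 have been described in postmeiotic germ cells of mice.

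Many genes of smooth muscle carry a CArG box, the sequence bound by the serum response factor SRF, in which a CC and a GG flank a run of A and T bases. The window from 250 bases before each annotated protein-coding transcript start to 50 bases from the start on was searched on the gene's strand. A box there reads as a box on the other strand too. At least 1 box was found for 5 members, and they are shown because they differ in what their RNA did in the mutants: 2 of these genes were higher, 1 was lower and 2 passed no test. The sequences are from GRCm39, 5′ to 3′ on the strand of the gene, with the CArG box in capitals.
Acta2, chr19:34231678-34231707, minus strand: gtgtgttttaCCTAATTAGGaaatgctccc
Actg2, chr6:83513259-83513288, minus strand: cgtcagctggCCTTTTTAGGgactctgttt
Actg2, chr6:83513296-83513325, minus strand: aaaaaaaacaCCTTATATGGtaatattgct
Cnn1, chr9:22011412-22011441, plus strand: agccgccgcgCCTTATAAGGcggccttggg
Myl9, chr2:156617213-156617242, plus strand: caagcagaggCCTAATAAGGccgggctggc
Mylk, chr16:34815159-34815188, plus strand: ataaactatcCCTTTTATGGgagttgaagc

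The first base of each box lay before its transcript start. The distance was 67 bases in Acta2, 73 and 110 in Actg2, 66 in Cnn1, 151 in Myl9 and 8 in Mylk. A box has 10 bases, so that of Mylk runs across its start. Each distance is to the nearest annotated start whose window held the box. None of these nearest starts is that of the canonical transcript, and the windows of other starts of the gene may hold the same box. A box stood in the windows of 5 of 10 members, against 440 of the 13775 protein-coding genes of the table (3.19%) and 214 of the 3471 with 5 or more starts (6.17%). The members had a median of 3.5 starts and all these genes a median of 2. Of the list of 14 relatives followed below, 3 had a box (21.4%, median of 4.5 starts): Actb, Actg1 and Cnn2. Of the list of 32 other smooth muscle genes 5 had a box (15.6%, median of 3 starts). A box is a match of letters, and binding by SRF was not measured.

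A few facts of the libraries bear on all values below. The deposited values are CPM, a gene's reads for every 1000000 reads of its library. With the step between CPM values taken as 1 read, the wild-type libraries held 32859673 to 37551057 reads and the mutant libraries 32064384 to 34806129. The lowest value of any member was then 63 reads. For members with few reads (Des, Cnn1, Lmod1) counting error is part of the spread between mice. Iqch itself measured 208 ± 11.3 CPM (SD, n = 4) in the wild-type mice and 67.3 ± 2.25 CPM (SD, n = 3) in the mutants, with no overlap (log2 fold change -1.63, SE 0.05, FDR 1.9e-10). In the same limma fit, 50.4% of the 17126 tested genes passed an FDR of 0.01, the threshold used throughout for a call. Over all genes the log2 fold change had a median of 0.121, and of -0.013 once the libraries were scaled by median-of-ratios size factors. All errors below are SDs over 4 wild-type or 3 mutant libraries, and FDR values are those of limma with Benjamini-Hochberg adjustment over all tested genes.

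Among the members, the tropomyosins Tpm1 and Tpm2, Myl9, Mylk and Des were higher in Iqch mutant testes, and Actg2 was lower. Acta2, Myh11, Cnn1 and Lmod1, the remaining 4, did not pass the test. The 5 higher members compare with 36.3% of all tested genes that were called higher, and the 1 lower member with 14.2% called lower, so the number of changed members is near the background. After scaling by size factors 5 members were again higher and 1 lower, beside 27.0% and 25.1% of all genes. The median log2 fold change of the 10 members was 0.35, and 0.22 after scaling. The 6 called members were called, in the same direction, in each of 13 alternative analyses as well. Every mutant library lay above every wild-type library for 5 members and below for 1, where the shares among all tested genes were 42.8% and 19.5% (62.3% for both). In whole-organ RNA, fewer cells of a type and less RNA per cell cannot be told apart.

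**Figure D1:**
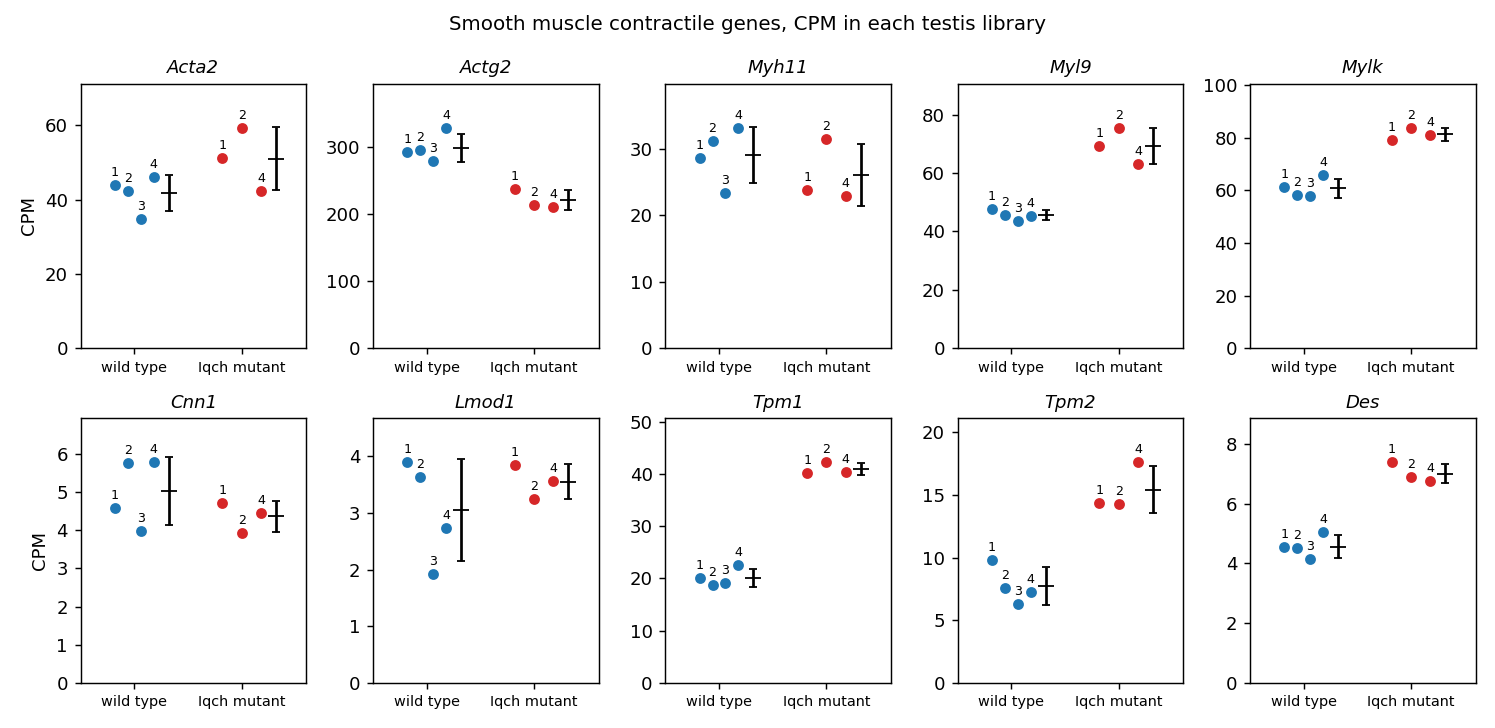
CPM of the 10 contractile genes in each library, with wild-type mice in blue and Iqch mutants in red, the mouse numbers above the points, and the mean with its SD beside them. Tpm1, Tpm2, Myl9, Mylk and Des separate upwards in the mutants, Actg2 separates downwards, and the groups overlap for Acta2, Myh11, Cnn1 and Lmod1.

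The members spanned a wide range of levels when CPM were divided by the length of each gene's exons in kb. This length is the union of all annotated exons, 8077 bases for Tpm1 and 7599 for Myh11. The canonical transcripts of these genes have 2190 and 6549 bases. The order of the members below therefore holds for the union length only, and another length could change it. In wild-type testes Actg2 led with 135 ± 9.42 CPM per kb, followed by Myl9 with 19.9 ± 0.741 and Acta2 with 12.9 ± 1.52. Mylk (5.39 ± 0.326 CPM per kb), Myh11 (3.83 ± 0.559) and Tpm1 (2.5 ± 0.213) came next, each with a range clear of its neighbours. Cnn1 (1.84 ± 0.327 CPM per kb) and Tpm2 (1.82 ± 0.358) overlapped, as did Des (0.887 ± 0.0735) and Lmod1 (0.746 ± 0.22) at the bottom. In the mutants Actg2 (99.6 ± 6.99 CPM per kb), Myl9 (30.3 ± 2.69), Acta2 (15.8 ± 2.64) and Mylk (7.22 ± 0.216) kept the first places. Tpm1 (5.06 ± 0.142 CPM per kb) and Tpm2 (3.65 ± 0.44) then stood ahead of Myh11 (3.43 ± 0.618), and the ranges of Tpm2 and Myh11 overlapped. Cnn1, Des and Lmod1 closed the mutant order with 1.6 ± 0.146, 1.36 ± 0.0641 and 0.869 ± 0.0742 CPM per kb.

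The smooth muscle actins did not move together. Acta2 (ENSMUSG00000035783, chr19:34217737-34232990, minus strand), the alpha-actin used as the standard marker of peritubular myoid cells, measured 43.9, 42.4, 34.7 and 46.0 CPM in wild-type mice 1 to 4. Mutants 1, 2 and 4 had 51.3, 59.4 and 42.4 CPM. Mutants 1 and 2 were above every wild-type mouse, while mutant 4 was level with wild-type mouse 2, so the groups overlapped. The means were 41.7 ± 4.91 and 51.1 ± 8.53 CPM, with a log2 fold change of 0.28 (SE 0.11, 95% interval 0.04 to 0.52, FDR 0.0394). The limma call turned on 1 library, since without mutant 4 the log2 fold change was 0.41 and the FDR 0.0047. Scaling by size factors gave 0.15 (FDR 0.251). On the opposite strand, Stambpl1 shares 301 bases with the exons of Acta2, 9.33% of the exon bases of Acta2. The Stambpl1 means were 51.2 ± 2.32 CPM in wild-type mice and 45.5 ± 1.6 CPM in mutants. Whether the counting used strand is not stated, so reads over the shared bases may belong to either gene.

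Actg2 (ENSMUSG00000059430, chr6:83489887-83513551, minus strand), the gamma-actin of visceral smooth muscle, stood at 293, 295, 280 and 329 CPM in the wild-type mice. It was at 238, 214 and 210 CPM in mutants 1, 2 and 4, so every mutant lay below every wild-type mouse. The mean fell from 299 ± 20.9 to 221 ± 15.5 CPM, 0.737-fold (log2 fold change -0.44, SE 0.06, FDR 3.4e-05). The log2 fold change ran from -0.50 to -0.39 with any 1 library left out and was -0.57 after scaling (FDR 6.7e-06). Actg2 held 56.6% to 59.0% of the CPM summed over the 10 members in wild-type mice, and 40.0% to 44.8% in mutants. The sum itself ranged from 475 to 563 CPM in wild-type libraries and from 492 to 535 in mutant libraries. Without Actg2, the other 9 members summed to 195 to 233 CPM in the former and 282 to 321 in the latter.

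Per kb of exon, Actg2 exceeded Acta2 by 9.73, 10.1, 11.8 and 10.4 times in wild-type mice 1 to 4. The excess was 6.76, 5.24 and 7.21 times in mutants 1, 2 and 4. The coefficient of variation between wild-type mice was 3.73% for Myl9, 6.04% for Mylk, 6.97% for Actg2, 8.29% for Des and 8.53% for Tpm1. It was 11.8% for Acta2, 14.6% for Myh11, 17.8% for Cnn1, 19.6% for Tpm2 and 29.5% for Lmod1. Spermatid markers, given here because Actg2 transcripts are known from postmeiotic germ cells, moved in the same direction. Of 8 such genes, 7 were lower and none higher, beside 14.2% and 36.3% of all tested genes. The 8 genes had a median log2 fold change of -0.59. Their CPM summed to 21827 to 23094 in wild-type mice and 13954 to 16017 in mutants. Prm2, a protamine that packs sperm DNA, went from 6134 ± 395 to 4041 ± 357 CPM (log2 fold change -0.60, SE 0.06, FDR 3.0e-06). The part of germ cell RNA in the Actg2 values was not tested.

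Of the motor and its activation, the light chain and the kinase were higher in the mutants and the heavy chain passed no test. Myh11 (ENSMUSG00000018830, chr16:14012399-14109236, minus strand), the heavy chain found in mature smooth muscle, measured 28.7, 31.2, 23.4 and 33.2 CPM in wild-type mice and 23.8, 31.5 and 22.9 CPM in mutants. Mutant 2 lay among the higher wild-type values and mutants 1 and 4 near the lowest. The log2 fold change was -0.16 (SE 0.12, 95% interval -0.43 to 0.11, FDR 0.277), and -0.30 after scaling (FDR 0.0483).

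Myl9 (ENSMUSG00000067818, chr2:156617084-156623579, plus strand) had 47.8, 45.6, 43.7 and 45.2 CPM in wild-type mice and 69.4, 75.6 and 63.2 CPM in mutants. The wild-type values were tight and every mutant was above them. The mean rose from 45.5 ± 1.7 to 69.4 ± 6.16 CPM, 1.52-fold (log2 fold change 0.60, SE 0.06, FDR 3.5e-06).

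Mylk (ENSMUSG00000022836, chr16:34565580-34822790, plus strand) had 61.4, 58.1, 57.8 and 65.7 CPM in wild-type mice and 79.0, 83.8 and 81.2 CPM in mutants, again without overlap. Its mean rose from 60.8 ± 3.67 to 81.3 ± 2.43 CPM, 1.34-fold (log2 fold change 0.42, SE 0.05, FDR 2.4e-05). After scaling the log2 fold changes were 0.47 for Myl9 and 0.29 for Mylk, both still called. The CArG box of Mylk printed above lies across a start near the 3′ end of the gene. From this end its short product telokin is known to be transcribed, and the gene totals do not separate the forms.

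Along the thin filament, the tropomyosins showed the largest changes of the 10 members, while Cnn1 and Lmod1 passed no test. Tpm1 (ENSMUSG00000032366, chr9:66929870-66956953, minus strand) had 20.1, 18.8, 19.1 and 22.6 CPM in wild-type mice and 40.1, 42.2 and 40.4 CPM in mutants. The mean rose from 20.2 ± 1.72 to 40.9 ± 1.15 CPM, 2.03-fold (log2 fold change 1.02, SE 0.07, FDR 1.1e-07). Each mutant was far above the highest wild-type mouse, and the log2 fold change was 0.99 to 1.08 with any 1 library left out.

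Tpm2 (ENSMUSG00000028464, chr4:43514697-43524949, minus strand) had 9.84, 7.57, 6.27 and 7.22 CPM in wild-type mice and 14.4, 14.3 and 17.6 CPM in mutants. It rose from 7.73 ± 1.52 to 15.4 ± 1.87 CPM (log2 fold change 1.00, SE 0.14, FDR 3.7e-05), without overlap. Scaling left log2 fold changes of 0.89 for Tpm1 and 0.87 for Tpm2. Gene totals do not separate the smooth muscle isoforms of these genes from their other isoforms.

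Cnn1 (ENSMUSG00000001349, chr9:22010512-22020926, plus strand), a calponin of differentiated smooth muscle, had 4.58, 5.77, 3.99 and 5.78 CPM in wild-type mice and 4.71, 3.93 and 4.45 CPM in mutants. Mutant 2 was just below the lowest wild-type mouse and mutants 1 and 4 lay within the wild-type range. The log2 fold change was -0.19 (SE 0.15, 95% interval -0.51 to 0.13, FDR 0.288). Elof1, on the opposite strand, shares 961 exon bases with Cnn1, 35.1% of the exon bases of Cnn1. Wild-type testes had 442 ± 14.7 CPM of Elof1 and mutant testes 375 ± 15.7 CPM (log2 fold change -0.24, SE 0.04, FDR 0.00035). The Elof1 reads far outnumbered those of Cnn1. How reads over the shared bases were counted is not stated, so the Cnn1 values may hold Elof1 reads or lack some of their own.

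Lmod1 (ENSMUSG00000048096, chr1:135252509-135295907, plus strand) was the lowest member, at 3.89, 3.64, 1.92 and 2.74 CPM in wild-type mice and 3.85, 3.24 and 3.56 CPM in mutants. All 3 mutants lay within the wild-type range. The log2 fold change was 0.26 (SE 0.21), and its 95% interval of -0.20 to 0.72 was the widest of the members (FDR 0.299).

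Des (ENSMUSG00000026208, chr1:75320511-75345223, plus strand), the muscle intermediate filament, had 4.55, 4.51, 4.14 and 5.06 CPM in wild-type mice and 7.38, 6.89 and 6.76 CPM in mutants. The mean rose from 4.57 ± 0.378 to 7.01 ± 0.33 CPM, 1.53-fold (log2 fold change 0.61, SE 0.11, FDR 0.00032), and the groups stood apart. Scaling gave 0.48 (FDR 0.00198).

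Single mice moved several members together. Wild-type mouse 3 was the lowest wild-type mouse for 9 of the 10 members, where it was lowest for 27.5% of all tested genes, and only Tpm1 was lowest in mouse 2. On the log2 scale it lay below the mean of the other wild-type mice by 0.79 for Lmod1, 0.41 for Cnn1, 0.40 for Myh11, 0.37 for Tpm2 and 0.34 for Acta2, and by 0.12 for Actg2. Wild-type mouse 4 was the highest for 7 members, and for 30.7% of all tested genes. Among the mutants, mouse 2 was the highest for 5 members and the lowest for 3. It was above the mean of the other mutants by 0.43 for Myh11 and 0.35 for Acta2, and below it by 0.22 for Cnn1 and 0.19 for Lmod1. Rgs5, a marker of pericytes, was at 11.8 CPM in mutant 2 and at 5.0 and 4.05 CPM in mutants 1 and 4. The pericyte marker Abcc9 was highest in mutant 2 as well, at 6.24 CPM against 4.68 and 4.82 CPM in mutants 1 and 4. The remaining pericyte marker tested was highest in mutant 1. The part of vessels or of dissection in these values was not tested.

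**Figure D2:**
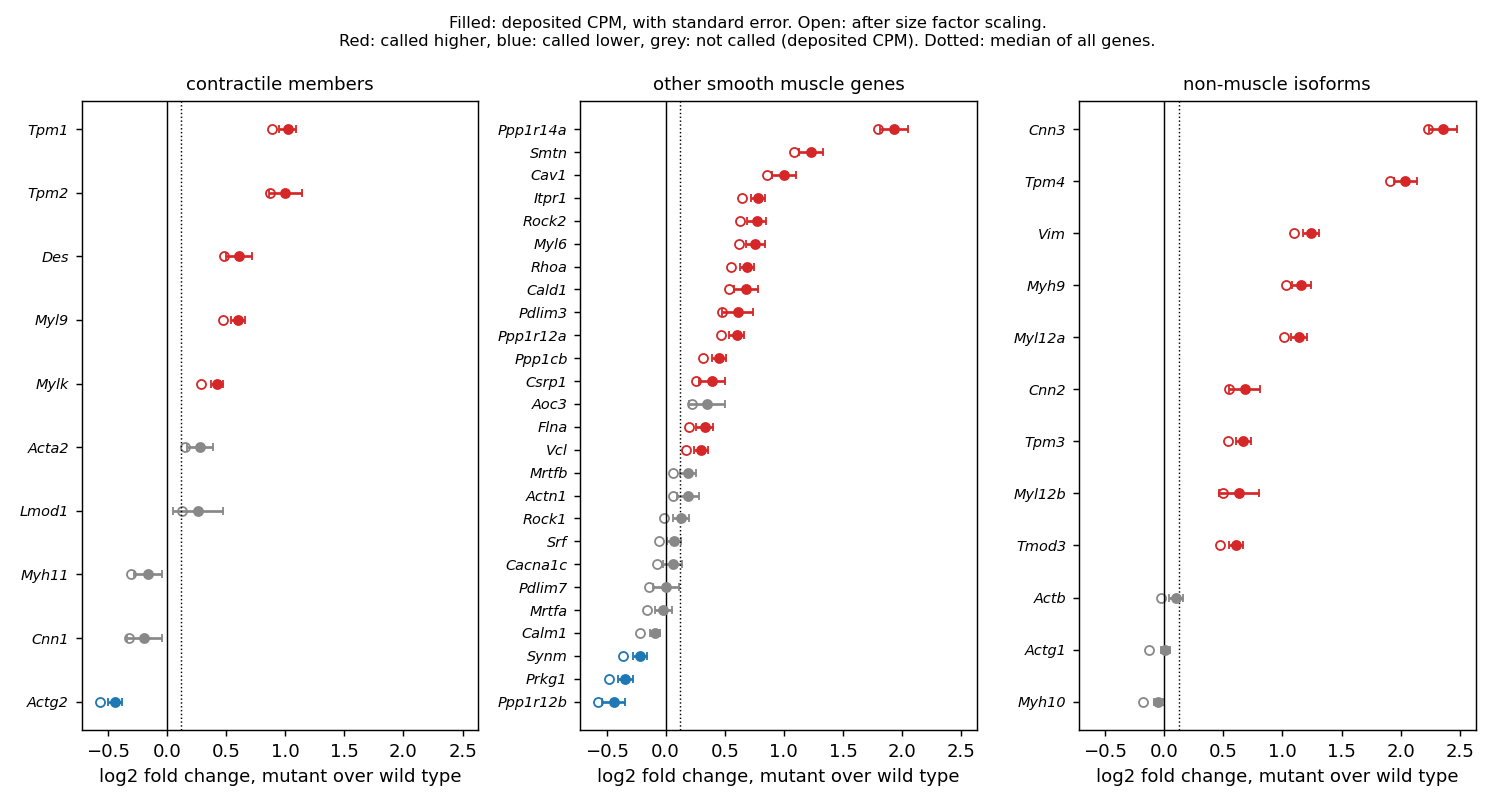
Log2 fold changes, mutant over wild type, of the 10 members, 26 other smooth muscle genes and 12 non-muscle relatives. Filled points with standard errors are from deposited CPM and open points from size-factor scaling, coloured by the call on deposited CPM (red higher, blue lower, grey not called), with the median of all genes as a dotted line. The members run from Actg2 at -0.44 to Tpm1 at 1.02, the non-muscle relatives up to Cnn3 at 2.36.

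Most families of the members also have forms used by non-muscle cells. Of a list of 14 relatives, 12 were tested, all of them forms of this kind, and Lmod2 and Lmod3, leiomodins of striated muscle, were not analysed here. Of these, 9 were higher and none lower in the mutants, with a median log2 fold change of 0.68, beside 36.3% and 14.2% of all tested genes. After scaling, 8 were higher and 1, Myh10, was lower, beside 27.0% and 25.1%. The calponin Cnn3 rose from 5.99 ± 0.468 to 31.6 ± 6.39 CPM (log2 fold change 2.36, SE 0.12, FDR 1.3e-08). The tropomyosin Tpm4 rose from 7.65 ± 0.933 to 31.7 ± 2.59 CPM (log2 fold change 2.04, SE 0.1, FDR 6.5e-09). Vim, the intermediate filament of mesenchymal cells, the heavy chain Myh9 and the light chain Myl12a were also higher, with log2 fold changes of 1.24, 1.16 and 1.14. The cytoplasmic actins passed no test, Actb at 513 ± 37.2 and 551 ± 26.3 CPM and Actg1 at 200 ± 4.38 and 201 ± 0.995 CPM. Myh10 stood at 158 ± 4.06 and 153 ± 4.78 CPM (log2 fold change -0.05, FDR 0.334).

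Ratios of a member to its non-muscle relative within each library do not depend on how libraries are scaled to each other, and 7 pairs were compared as a description. They are ratios of CPM, not corrected for length, so their changes rather than their sizes are of interest. Cnn1 to Cnn3 shifted most. Its log2 ratio was -0.53, 0.01, -0.48 and -0.05 in wild-type mice and -2.35, -3.20 and -2.89 in mutants, so that the ratio was 5.86 times lower in mutants with no overlap. Myh11 to Myh9 went from 0.50 ± 0.22 to -0.83 ± 0.29 on the log2 scale, positive in every wild-type mouse and negative in every mutant. Tpm2 to Tpm4 went from 0.0 ± 0.40 to -1.04 ± 0.05, and Actg2 to Actg1 from 0.58 ± 0.13 to 0.13 ± 0.09, both without overlap. In these 4 pairs the ratio of the member to its relative was lower in the mutants. For Cnn1, Myh11 and Tpm2 this went with higher RNA of the partner, although Tpm2 itself was higher too, and for Actg2 with lower RNA of Actg2. The groups overlapped for Acta2 to Actb (-3.62 ± 0.10 and -3.44 ± 0.19), Myh11 to Myh10 (-2.45 ± 0.25 and -2.56 ± 0.29) and Myl9 to Myl12b (4.41 ± 0.26 and 4.39 ± 0.22). The outcome depends on the relative that was paired. Tpm3 had a log2 fold change of 0.67, below the 1.00 of Tpm2, and Myl12a one of 1.14, above the 0.60 of Myl9.

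Ratios between members also moved, and both pairs given here were chosen after the values were seen. Actg2 to Acta2 went from 2.84 ± 0.12 to 2.12 ± 0.24 on the log2 scale, 1.65 times lower in the mutants. Tpm1 to Myh11 went from -0.52 ± 0.18 to 0.66 ± 0.21, 2.27 times higher, negative in all wild-type mice and positive in all mutants.

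**Figure D3:**
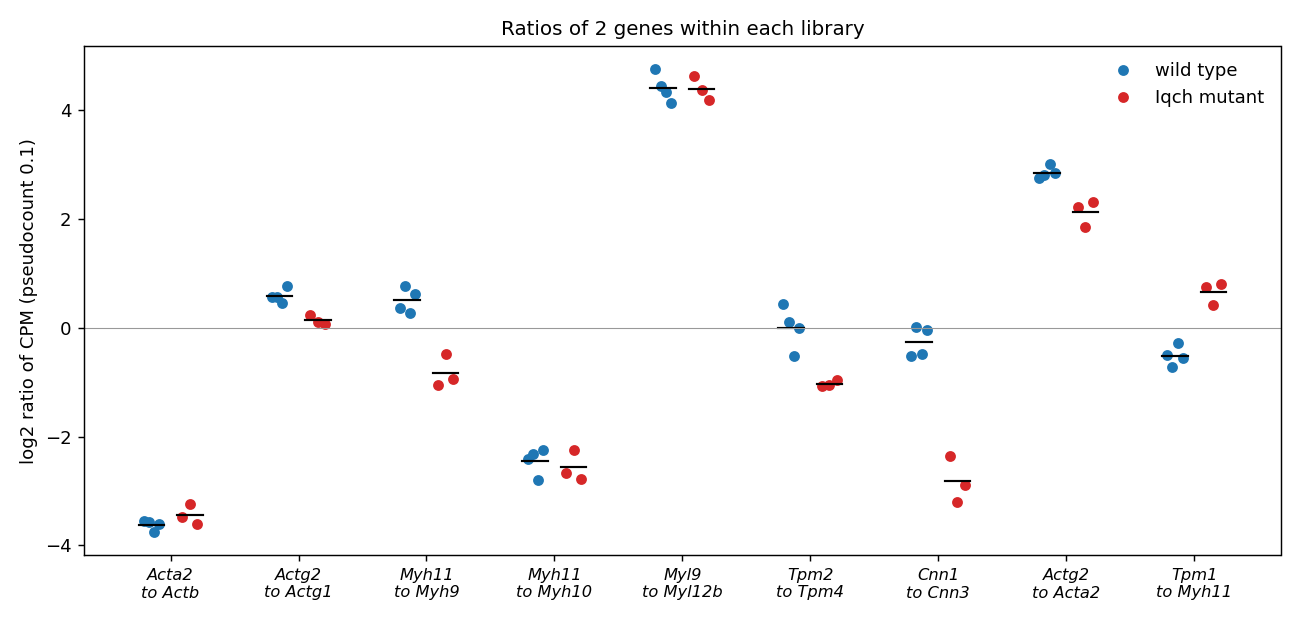
Log2 ratio of CPM (pseudocount 0.1) of a member to its non-muscle relative or to another member in each library, wild type in blue and Iqch mutant in red, with bars at the group means. Cnn1 to Cnn3, Myh11 to Myh9, Tpm2 to Tpm4 and the 2 pairs with Actg2 in first place lie lower in every mutant, and Tpm1 to Myh11 lies higher.

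The other genes of the smooth muscle apparatus were followed as a list of 32, of which 26 were tested. Tagln, Synpo2, Kcnmb1, Myocd, Foxf1 and Itga8 were not analysed here. In the mutants 14 were higher, 3 lower and 9 not called, with a median log2 fold change of 0.34, and the shares of all tested genes were 36.3% higher and 14.2% lower. After scaling 11 were higher and 4 lower, beside 27.0% and 25.1% of all genes. The largest increase was in Ppp1r14a, the kinase-regulated inhibitor of myosin phosphatase, from 6.49 ± 1.11 to 24.8 ± 1.49 CPM (log2 fold change 1.93, SE 0.12, FDR 5.4e-08). The phosphatase itself was divided: its targeting subunit Ppp1r12a rose from 49.6 ± 3.27 to 75.3 ± 4.52 CPM and its catalytic subunit Ppp1cb from 66.2 ± 3.81 to 90.5 ± 5.66 CPM. The related subunit Ppp1r12b, common in muscle, fell from 50.9 ± 7.78 to 37.3 ± 0.708 CPM (log2 fold change -0.44, SE 0.1, FDR 0.00163).

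Upstream of the phosphatase, Rhoa and Rock2, which restrain it, had log2 fold changes of 0.69 (FDR 3.9e-07) and 0.77 (FDR 2.3e-06), while Rock1 passed no test at 0.13. Prkg1, the cGMP kinase that relaxes smooth muscle, fell from 41.9 ± 2.95 to 33.0 ± 0.562 CPM (log2 fold change -0.34, SE 0.06, FDR 0.00043). The calcium release channel Itpr1 rose from 38.4 ± 2.19 to 66.1 ± 0.493 CPM, and the calcium channel gene Cacna1c stood at 9.83 ± 0.374 and 10.3 ± 0.559 CPM (FDR 0.526).

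Among filament partners, smoothelin (Smtn), a marker of contractile smooth muscle, rose from 5.99 ± 0.506 to 14.1 ± 1.28 CPM (log2 fold change 1.23, SE 0.1, FDR 4.8e-07). The caveolar coat gene Cav1 went from 6.49 ± 0.296 to 13.1 ± 1.59 CPM, and caldesmon (Cald1) from 14.6 ± 1.82 to 23.3 ± 2.36 CPM, with log2 fold changes of 1.00 and 0.68 (FDR 2.8e-06 and 7.8e-05). The calls of Csrp1, Flna and Vcl, at 0.39, 0.33 and 0.30, were lost after scaling. The intermediate filament gene Synm fell by 0.22 on the log2 scale (FDR 0.00627), a call that was lost with any 1 library left out (FDR 0.012 to 0.0248). Srf, whose product binds CArG boxes, had means of 53.1 ± 3.14 and 55.9 ± 1.85 CPM (FDR 0.266). Its partners Mrtfa and Mrtfb had log2 fold changes of -0.02 and 0.19 and passed no test (FDR 0.781 and 0.0259).

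Markers of the cell types a testis holds were measured beside these genes, with their summed levels given as ranges over mice. Their counts of calls stand beside 36.3% of all tested genes called higher and 14.2% called lower. The peritubular myoid or smooth muscle list, made of 6 of the members (Acta2, Actg2, Myh11, Cnn1, Des and Lmod1), had 1 gene higher and 1 lower, a median of 0.05, and a summed level of 348 to 422 CPM in wild-type mice against 290 to 330 in mutants, most of it Actg2. Tagln, its other marker, was not analysed here. Leydig markers were higher for 6 of 7 genes (median 1.42, 1021 to 1224 against 4296 to 4472 CPM), with Insl3 the most abundant, and Sertoli markers for 9 of 9 (median 0.81, 1270 to 1387 against 2604 to 2739 CPM), with Clu the most abundant. Macrophage markers were higher for 9 of 9 (median 1.8, 94.8 to 105 against 293 to 332 CPM).

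Of the cell types near myoid cells, stromal markers were mixed, with 3 of 7 higher and 1 lower. Their summed level was higher (134 to 169 against 185 to 213 CPM), while the median log2 fold change was -0.22, and -0.35 after scaling, with 2 then lower. Dcn rose from 38.3 ± 1.28 to 87.3 ± 4.05 CPM, and Col1a2 stood at 37.7 ± 6.3 and 32.5 ± 6.03 CPM. Endothelial markers were higher for 3 of 8 and lower for none (median 0.4, 46.8 to 51.8 against 62.8 to 66.5 CPM). The shares of all tested genes were 36.3% higher and 14.2% lower, and 27.0% and 25.1% after scaling. The numbers of stromal and endothelial markers called higher are thus near the background. The endothelial marker Kdr rose from 3.69 ± 0.782 to 13.0 ± 0.633 CPM (log2 fold change 1.81, FDR 3.9e-07). It was also called higher after scaling (1.68, FDR 8.5e-07). Vwf, at 18.3 ± 0.426 and 15.8 ± 0.791 CPM, was called lower after scaling (log2 fold change -0.35, FDR 0.00056). Of the pericyte markers 3 of 8 were tested and 2 were higher, Rgs5 and Abcc9 (6.82 to 9.1 against 10.7 to 20.1 CPM). Among spermatogonial and spermatocyte markers, 4 of 7 and 1 of 6 were higher and none lower. After scaling these were 1 of 7 higher, and for spermatocytes none higher and 1 lower (Sycp1, log2 fold change -0.35, FDR 0.00116). Striated muscle genes were tested for 2 of 12 (Myh1 and Actn2, summing to 5.46 to 6.73 against 3.19 to 3.96 CPM), 1 lower, and epididymal markers for 1 of 6 (Rnase10, 1.77 to 2.18 against 2.98 to 4.51 CPM), which was higher. No marker tested was at 0 in any library. Summed marker levels of several cell types thus moved with the genotype, and their part in the members' values was not tested.

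**Figure D4:**
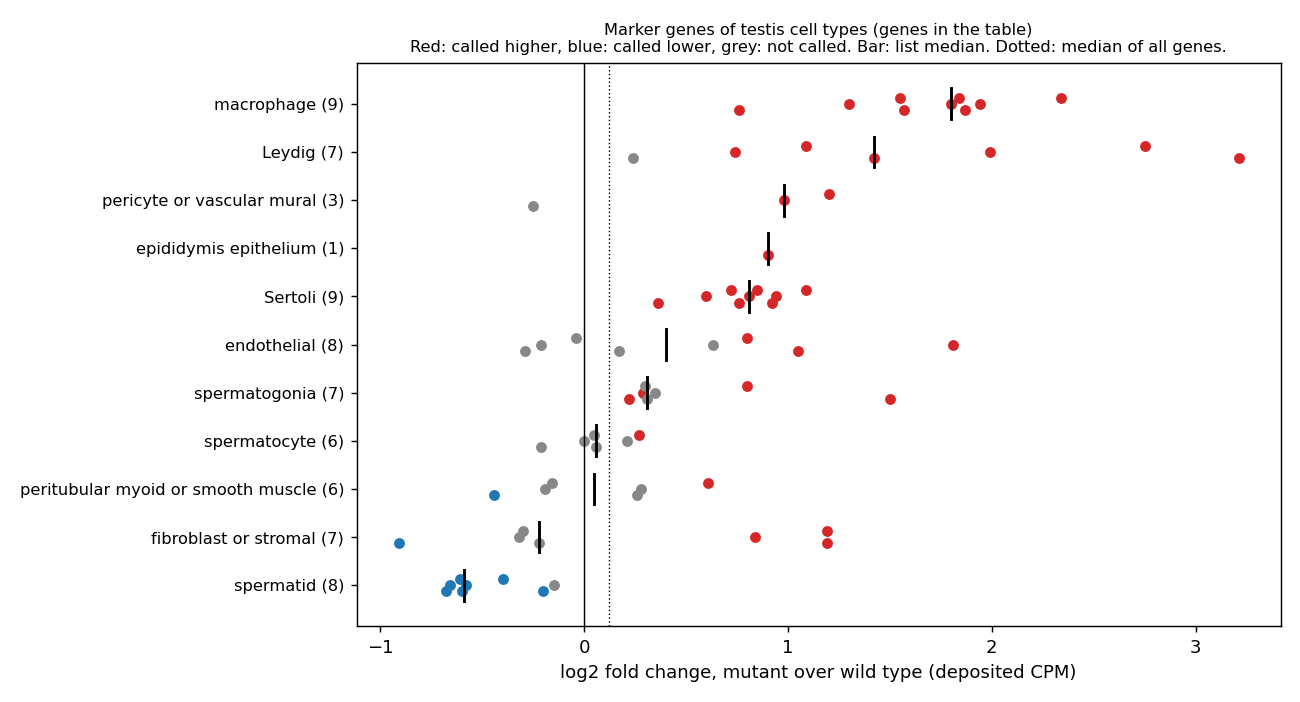
Log2 fold change, mutant over wild type, of each tested marker gene of 11 cell type lists, with the number of genes in brackets, the list median as a bar and the median of all genes as a dotted line. The peritubular myoid or smooth muscle list is centred at 0.05, between the spermatid list at -0.59 and the Sertoli, Leydig and macrophage lists at 0.81, 1.42 and 1.8.

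The pattern of Acta2 over the 7 libraries was also compared with those of 11171 genes with a mean of at least 10 CPM, by Pearson's r of log2(CPM + 0.1). The libraries share 2 genotypes and a common scale, so r is given as a description. Outside the lists, the genes most like Acta2 were Gm2999 (r = 0.995), Ctdnep1 (0.966), Esx1 (0.952), Babam1 (0.952) and Igfbp2 (0.947). None of these 5 was called between genotypes. Among all genes compared Gm2999 ranked 2 and Ctdnep1 ranked 4, so a gene of the lists that is not a member stood between them. Of the other members at this level, Myl9 had an r of 0.775, Mylk 0.73, Tpm1 0.687, Tpm2 0.598 and Myh11 0.419, and Actg2 had an r of -0.443.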

How the data were processed

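RNA-seq reads of whole testes were trimmed by the authors with Trimmomatic, mapped to GRCm39 with Subread and counted per gene with featureCounts. The authors left out genes with few reads and deposited CPM that sum to 1000000 in each library, so no factor between samples was found in them. The annotation release and the strand setting are not given in the sources used here. Of 8 samples, 7 had a column, and mutant 3, one of 4 mutants, was not analysed here.

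The 17126 genes that reached 2.2 CPM in at least 2 libraries of either genotype were tested on log2(CPM + 0.1) with limma 3.58.1 (R 4.3.3), using moderated variances with a mean trend, with Benjamini-Hochberg adjustment and an FDR threshold of 0.01. This was in place of the count methods the authors used, since the values are CPM. Fold changes on this scale understate changes of low genes. The fit was tested on simulated data in which few genes changed, up or down at random. It was not tested with as many changed genes as here, where 50.4% were called. Fold changes were repeated after scaling by median-of-ratios size factors, with a replicate block, with pseudocounts of 1 and 0.01, with the minimum raised to 5 CPM or dropped, and with each library left out.

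The members and gene lists were chosen with earlier results of these data known. Named were all members, any gene of the smooth muscle and non-muscle lists, from each marker list up to 2 of the highest mean CPM, and the 5 genes outside the lists most like Acta2. Stambpl1 and Elof1 were named because they overlap members. Symbols, coordinates, exon lengths (union of exons) and starts came from GENCODE M39 on GRCm39, where 17045 of 17127 genes (99.5%) were found. No stretch of 100 bases in the canonical transcript of a member occurs in a transcript of another gene. In these CPM a single read is worth 0.0266 to 0.0312, with all values (100%) whole multiples of this step. This precision covers counting error only. Replicates are single mice, and their values across genes correlated at 0.992 to 0.9945 in wild-type and 0.9928 to 0.994 in mutant libraries. Other computations used Python 3.11.15 with pandas 2.3.3 and NumPy 2.4.6, and figures were drawn in matplotlib 3.10.9.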

Additional observations from a re-analysis of the deposited data

Results flagged for a closer look

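Wild-type mouse 3 stood apart from the other 3 wild-type mice for 3 of the 49 genes checked, by a gap that took up most of the range of the group. It had 9.04 CPM of the tropomyosin Tpm4 where the others had 7.02 to 7.27, 54.4 CPM of the myosin phosphatase subunit Ppp1r12a where they had 47.5 to 48.6, and 42.8 CPM of Rhoa where they had 38.3 to 38.9. In these genes the mouse was high, whereas it was the lowest wild-type mouse for 9 of the 10 contractile members. Chance alone sets 1 sample apart in about 1 of 20 groups, and every mutant lay above mouse 3 in each of the 3 genes.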

How the results depend on the processing

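The calls of Tpm1, Tpm2, Myl9, Mylk, Des and Actg2 held in all 13 alternatives run, and Myh11, Cnn1 and Lmod1 were called in none, although Lmod1 was not tested at a minimum of 5 CPM. Acta2 was called in 1, without mutant 4. Median-of-ratios size factors moved the genes called lower from 2428 to 4294, those called higher from 6212 to 4624 (27.0% of those tested) and the median of the members from 0.35 to 0.22, because the median of all genes shifted from 0.121 to -0.013. With each library left out, 7237 to 8503 genes were called. A replicate block gave 7722 genes against 8640 and the same calls of members, with Acta2 at 0.20, Myh11 at -0.26 and Lmod1 at 0.06. These log2 fold changes were the same with wild-type mouse 3 left out. No analysed mutant has the number of that mouse, so the block took it out of the comparison. Deviations of mice with the same number correlated at 0.026, 0.009 and -0.098, and those of mice with different numbers at -0.061 to 0.073. The labels do not say whether the numbers pair the mice, and correlations over so few mice cannot settle it. Of the marker lists, pericyte and epididymal calls went to 0 at a minimum of 5 CPM, spermatogonial calls went from 4 to 1 after scaling and to 2 with the replicate block, and with each library left out they were as low as 1 and spermatocyte calls 0 to 2. The ratio of Myl9 to Myl12b, -0.02, turned to 0.13 with a pseudocount of 1, and with each library left out it ran from -0.14 to 0.09 (0.09 without wild-type mouse 1 and 0.08 without mutant 4). Of the 3 other smooth muscle genes called lower, Prkg1 and Ppp1r12b kept their calls in all alternatives, and Synm lost its call with the replicate block (FDR 0.0304) and with each library left out. Planned count tests on reads recovered from the CPM were not run. With 3 and 4 mice, smaller changes of variable genes such as Lmod1 and Cnn1 could not be resolved.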
